A study of Mus musculus with 16 samples.

Results

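The transcription factors described here are 8 genes that specify or maintain liver and other endoderm-derived epithelia: Hnf4a, Foxa1, Foxa2, Foxa3, Cebpa, Onecut1, Prox1 and Nr1i3. They were chosen by name, and all 8 were measured among 19938 genes, each by a single probe set. The arrays came from a study of mice in which reprogramming factors were switched on by doxycycline and then switched off again. RNA from 16 samples in 6 groups was hybridised to mouse whole-transcript Affymetrix arrays.

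The ES cell group was 1 culture of embryonic stem cells of 129xC57BL6 background, and each of the other groups had 3 arrays. Mice derived from that ES cell line, of 129xC57BL6 F1 or mixed background, gave the normal kidney, the normal liver and the primary tumors. Kidney tumors came from reprogrammable mice whose doxycycline treatment began at 4 weeks of age and lasted 7 days. They were sampled 7 days after withdrawal, and normal kidney was of the same age. Liver tumors were primary tumors of the reprogrammable mice. The sources used here give neither their timing nor the age of the normal livers. Secondary kidney tumors had been transplanted beneath the skin of immunodeficient hosts. Tumors arose in chimeric mice, so tumor samples may hold host cells of the ICR strain. The labels do not say that the 3 arrays of a group came from separate animals, so the spread behind each p-value is that of the samples at hand and may be technical. Because ES cells had 1 array, they enter no test.

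The hepatocyte program is held by a network of transcription factors that bind one another's regulatory regions. Foxa1, Foxa2 and Foxa3 are forkhead proteins, known as pioneer factors because they bind closed chromatin, and act in endoderm before the liver forms. Foxa1 and Foxa2 also act outside the liver, in lung, pancreas and the floor plate of the neural tube. Hnf4a is a nuclear receptor required for hepatocyte differentiation and is also present in the proximal tubule of the kidney. Onecut1 (HNF6) acts in early liver and bile duct development, and Prox1 is a homeodomain protein of hepatoblasts, lymphatic endothelium and neural progenitors. Cebpa is a leucine-zipper factor of mature hepatocytes and adipocytes. Nr1i3, the constitutive androstane receptor CAR, controls drug-metabolising enzymes in mature hepatocytes.

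The regions just before the transcription starts of these genes are shown because Foxa1, Foxa2 and Foxa3 on one side and Hnf4a on the other moved in different directions in the kidney tumors. RefSeq on GRCm38.p6 gave 12 start sites for the 8 genes, and the 250 bases before each start were searched on both strands for 7 short motifs. Capitals mark every match to any of the 7. In the start 1 region of Hnf4a the 46 bases next to the start were left out because they lie inside the annotated gene, and for Foxa1 only the 30 bases around its match are given. Coordinates refer to GRCm38.p6: Hnf4a start 1 at chr2:163506607-163506810, plus strand, Hnf4a start 2 at chr2:163546905-163547154, plus strand, Foxa1 at chr12:57546235-57546264, minus strand, Foxa2 start 1 at chr2:148046970-148047219, minus strand, and Foxa3 at chr7:19023540-19023789, minus strand.
Hnf4a start 1: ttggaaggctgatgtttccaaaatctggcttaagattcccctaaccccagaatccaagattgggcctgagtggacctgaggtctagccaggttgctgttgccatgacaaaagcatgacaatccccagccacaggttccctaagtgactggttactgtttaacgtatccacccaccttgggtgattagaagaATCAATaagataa
Hnf4a start 2: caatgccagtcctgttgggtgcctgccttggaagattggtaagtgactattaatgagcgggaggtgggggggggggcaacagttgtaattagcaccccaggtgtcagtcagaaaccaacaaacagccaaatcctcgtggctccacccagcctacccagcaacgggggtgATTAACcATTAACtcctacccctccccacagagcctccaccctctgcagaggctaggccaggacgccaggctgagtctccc
Foxa1: ttatactgctttGTAAACAaagtgagggcc
Foxa2 start 1: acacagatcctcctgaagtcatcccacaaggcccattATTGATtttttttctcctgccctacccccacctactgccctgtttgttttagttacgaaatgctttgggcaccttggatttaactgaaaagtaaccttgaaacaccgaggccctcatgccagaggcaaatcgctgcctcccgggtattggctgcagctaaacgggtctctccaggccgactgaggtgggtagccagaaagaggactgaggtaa
Foxa3: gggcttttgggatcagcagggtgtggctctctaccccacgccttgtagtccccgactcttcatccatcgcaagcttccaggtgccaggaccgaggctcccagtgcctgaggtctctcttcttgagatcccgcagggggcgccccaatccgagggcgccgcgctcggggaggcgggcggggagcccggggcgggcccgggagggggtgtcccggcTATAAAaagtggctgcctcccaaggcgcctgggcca

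Among 32851 regions of the same length in the RefSeq table, the forkhead motif TGTTTAC was present in 3.2%, the Onecut motif ATTGAT in 6.7%, the HNF1 motif GTTAAT in 6.4% and the HNF4 motif AAAGTCC in 3.6%. The nuclear receptor motif AGGTCA was present in 14.0%, the C/EBP motif TTGCNNAA in 9.6% and the TATA motif TATAAA in 12.4%. Hnf4a start 1 held an Onecut match 59 to 54 bases before the start. Hnf4a start 2 held 2 HNF1 matches, from 81 to 76 and from 74 to 69 bases before it. The Foxa1 region held the forkhead motif, on its minus strand, 141 to 135 bases before the start. Foxa2 start 1 held an Onecut match 213 to 208 bases before the start. Its start 3 held an HNF1 match 176 to 171 bases before it and a TATA match on the minus strand 208 to 203 bases before it. A TATA match lay 36 to 31 bases before the Foxa3 start, 30 to 25 bases before the Cebpa start and, on the minus strand, 34 to 29 bases before Prox1 start 1. These letters were not found before the Onecut1 and Nr1i3 starts. A match describes the letters only, and binding was not measured.

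Values below are log2 of the deposited intensities. Over all genes an array's 10th percentile was 5.40 to 5.71, its 25th percentile 6.43 to 6.68 and its median 7.82 to 8.18. The median deposited intensity moved with the groups: it was 191 to 199 in ES cells and normal tissues, 206 to 213 in primary tumors and 221 to 226 in secondary kidney tumors. Intensities of different genes come from different probes, so levels were compared within a gene only. The labelled tissues were checked on marker lists. The mean over 20 hepatocyte target genes was 12.76 to 12.79 in normal liver and 8.40 to 8.58 in normal kidney, and the mean over 12 proximal tubule genes was 13.01 to 13.11 in normal kidney. In secondary kidney tumors the proximal tubule mean was 6.53 to 6.54, beside 6.65 in ES cells, so that list mean was at the level of cells outside the kidney. The mean over 11 collecting duct and urothelium genes was 7.99 to 8.12 there, beside 7.24 in ES cells and 8.73 to 9.32 in normal kidney. Members of that list divided. In secondary kidney tumors Krt5 was at 10.75 to 11.41, Upk1b at 10.21 to 10.47 and Hsd11b2 at 10.24 to 10.48. ES cells held these at 6.72, 7.17 and 7.49. Aqp2, at 7.01 to 7.16, and Avpr2, at 5.99 to 6.20, lay near their ES cell values of 7.55 and 6.09. Normal liver 1 carried kidney signal, with a proximal tubule mean of 9.24 against 7.95 and 7.04 in the other normal livers. Adipocyte markers stood high in normal kidney 2, normal liver 1 and secondary kidney tumor 1, at means of 9.96, 10.28 and 9.70 over 9 genes against 6.70 to 7.69 in the 13 other arrays. Xist, the RNA of the inactive X chromosome, was at 10.84 and 10.19 in kidney tumors 2 and 3 and at 10.45 and 11.35 in liver tumors 2 and 3, and at 5.60 to 7.84 in the 12 others. The mean of the Y-linked genes Uty, Kdm5d and Eif2s3y was 8.41 in ES cells and 9.13 to 9.44 in the other tissue arrays. It was 8.74 and 7.67 in kidney tumors 2 and 3 and 8.56 and 8.24 in liver tumors 2 and 3. Values without these arrays are given where leaving them out changed a call or moved a count by over 1.5 times.

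Foxa1 was low in normal kidney, at 7.94, 6.97 and 7.59. Its values in normal liver were 9.82, 9.94 and 9.87. Kidney tumors gave 9.34, 9.71 and 9.83. All 3 kidney tumors therefore lay above every normal kidney. Kidney tumor 3 entered the normal liver range, and the other two lay below it. Liver tumors gave 9.12, 10.07 and 9.32, on either side of normal liver. The secondary kidney tumors, at 11.80, 11.68 and 11.59, were higher than every other array. The ES cell value of 7.23 lay within the normal kidney range. In order of means Foxa1 fell from secondary kidney tumor through normal liver, kidney tumor and liver tumor, 3 groups whose arrays overlapped, to normal kidney and ES cells.

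Foxa2 followed the same division on a smaller scale. It was at 7.17, 7.11 and 7.46 in normal kidney and at 6.92 in ES cells. Kidney tumors gave 8.83, 8.91 and 9.49. Secondary kidney tumors gave 9.61, 9.43 and 9.42, which overlapped the kidney tumors. Normal liver, at 8.63, 8.71 and 8.93, overlapped liver tumors, at 8.36, 8.97 and 8.05. Only normal kidney and ES cells stood below all the other groups.

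Foxa3, the forkhead factor best known from adult liver and gut, kept apart from its relatives. Normal liver gave 10.95, 11.03 and 11.06, and liver tumors 10.16, 10.22 and 9.71. Those ranges did not overlap. Normal kidney gave 6.31, 6.18 and 6.10, below the 25th percentile of all genes. Kidney tumors gave 7.73, 7.49 and 7.80, above normal kidney and far below liver. Secondary kidney tumors gave 6.77, 6.56 and 6.71, and ES cells were at 6.85.

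Hnf4a was high in both normal tissues. Normal kidney gave 12.92, 12.90 and 12.83 and normal liver 12.45, 12.59 and 12.43. The highest level was thus in kidney, where the 3 arrays lay above all 3 livers. Kidney tumors gave 11.74, 11.45 and 10.35, all lower than normal kidney and spread over more than 1 log2 unit. Liver tumors, at 12.12, 11.57 and 11.09, were below every normal liver and overlapped the kidney tumors. Secondary kidney tumors gave 7.40, 7.44 and 7.50, close to the 7.08 of ES cells and below every array of the other tissue groups.

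Nr1i3, the other nuclear receptor, stood above the floor only in liver samples. Normal liver gave 10.23, 10.43 and 9.86. The 3 liver tumors gave 10.58, 8.19 and 7.49. Liver tumor 1 was therefore above every normal liver while liver tumors 2 and 3 were below all of them. The 10 arrays of kidney, kidney tumors and ES cells lay between 5.97 and 6.47, at or below the 25th percentile of all genes.

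Cebpa stood at 11.31, 11.30 and 11.31 in normal liver, the tightest group of any of the 8 genes. Liver tumors gave 9.86, 9.82 and 9.78 and were also tight. Normal kidney gave 8.88, 9.12 and 8.81. Kidney tumors, at 8.40, 8.32 and 8.05, lay below normal kidney without overlap. Secondary kidney tumors gave 8.69, 7.84 and 7.82, and ES cells 7.56. Secondary kidney tumor 1 and normal kidney 2, the highest array of each of those groups, were the arrays with high adipocyte markers, and Cebpa is itself an adipocyte factor. The part of adipocytes in those values was not tested.

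Onecut1 divided liver from all other samples. Normal liver gave 9.43, 9.66 and 10.09 and liver tumors 9.71, 9.38 and 8.87, with overlap. Normal kidney gave 7.37, 6.78 and 7.12, kidney tumors 7.30, 7.57 and 7.79, and secondary kidney tumors 7.46, 7.41 and 7.72. ES cells were at 7.23. The ranges of kidney tumors and secondary kidney tumors overlapped, and kidney tumors overlapped normal kidney at its upper end.

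Prox1 was highest in normal liver, at 10.94, 11.13 and 11.13, and lower in liver tumors, at 10.39, 10.04 and 9.72. Normal kidney gave 7.75, 7.65 and 7.59. Kidney tumors gave 8.17, 8.59 and 8.60, all above normal kidney. Secondary kidney tumors gave 8.85, 8.64 and 8.91, all above the kidney tumors. ES cells, at 6.46, were lower than every tissue. In its 6 groups no neighbours in the order of means overlapped.

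**Figure D1:**
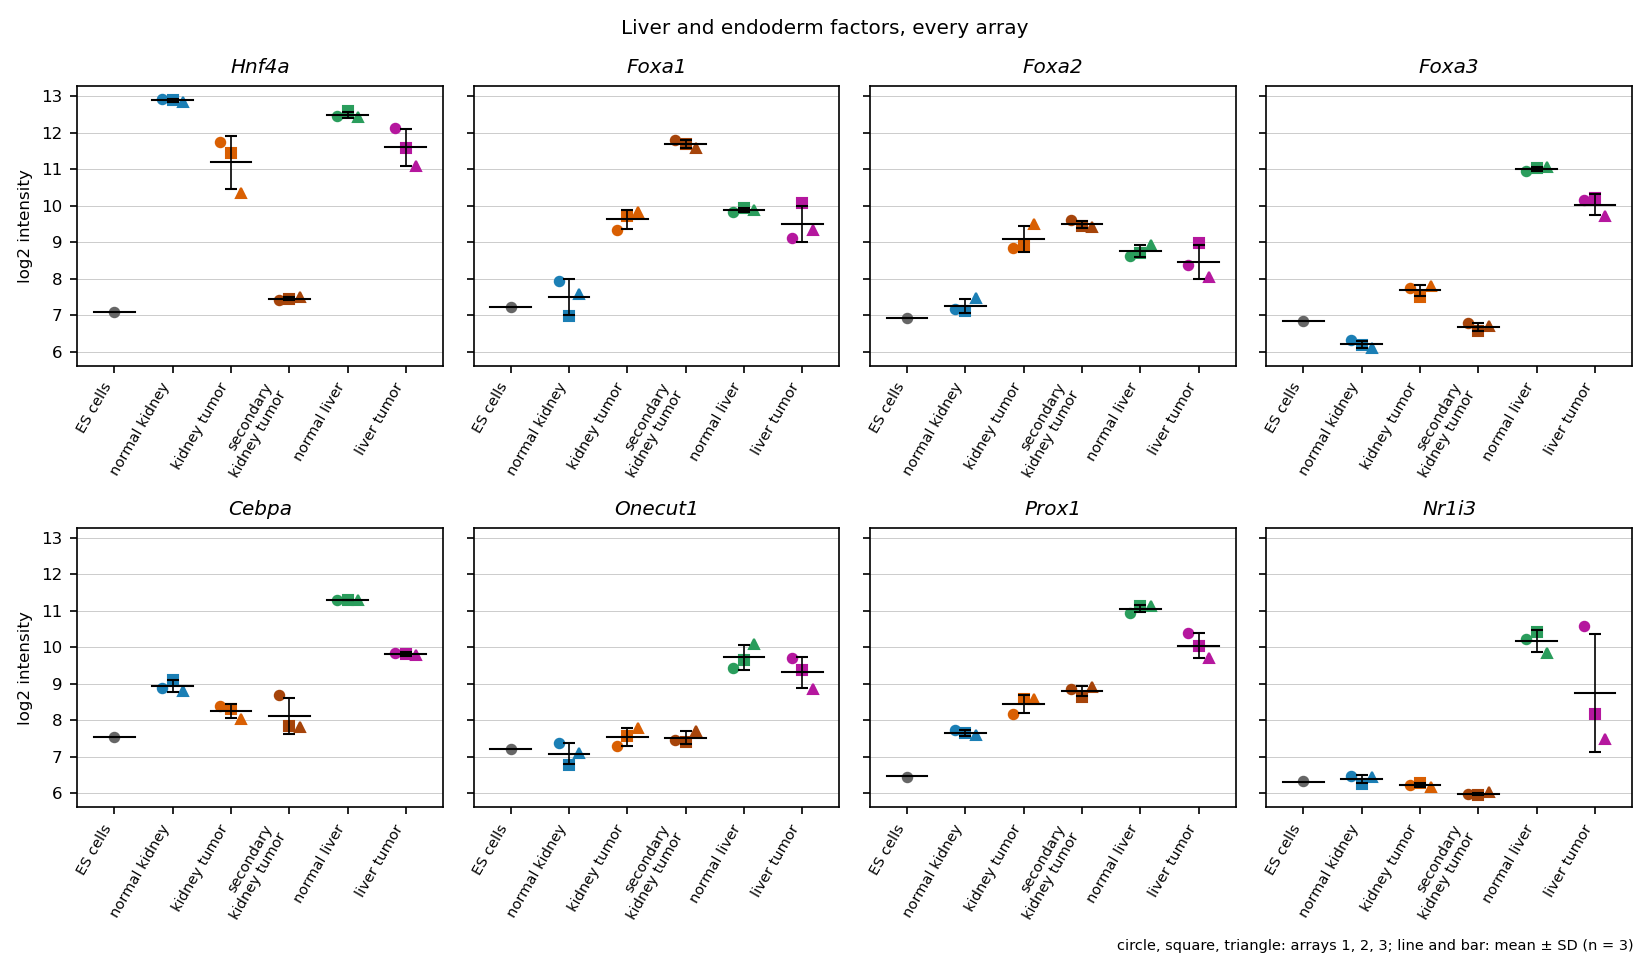
Log2 intensity of the 8 factors on each array, by group; symbols are arrays 1, 2 and 3, and line and bar are mean ± SD (n = 3, ES cells n = 1). Hnf4a falls from 12.88 in normal kidney to 7.45 in secondary kidney tumors while Foxa1 goes from 7.50 to 11.69.

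By group means, 5 of the 8 factors were highest in normal liver, Foxa3, Cebpa, Onecut1, Prox1 and Nr1i3, and 26.9% of all genes were highest there. Foxa1 and Foxa2 were highest in secondary kidney tumors, as were 18.8% of all genes, and Hnf4a in normal kidney, as were 21.2%. ES cells held the lowest value of 5 factors and of 15.3% of all genes. Among the factors themselves, the closest pair after each gene was centred on its own mean was Onecut1 and Prox1, with a root mean square difference of 0.53 log2 units over the 16 arrays. Cebpa and Onecut1 differed by 0.665 and Foxa1 and Foxa2 by 0.70. These figures describe the arrays and share their groups, so they carry no test.

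The comparison of the normal tissues sets the base for the tumors. Normal liver exceeded normal kidney in 7 of 8 factors, beside 16.4% of all genes (37.8% passed in either direction and 21.4% were lower in liver). Foxa3 was 28.1-fold higher in liver (log2 difference 4.81 ± 0.13 SE, adjusted p = 7.09e-12), Nr1i3 13.7-fold and Prox1 10.6-fold. Onecut1 was 6.22-fold, Foxa1 5.20-fold, Cebpa 5.17-fold and Foxa2 2.85-fold higher. Hnf4a was the exception, at -0.40 (95% confidence interval -1.04 to 0.25, adjusted p = 0.326). Its arrays did not overlap, and a fit on the normal liver and normal kidney arrays alone gave the same -0.40 an adjusted p of 0.00407. Of 20 hepatocyte target genes 18 were higher in liver and of 12 proximal tubule genes all 12 were lower.

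In kidney tumors the Foxa genes and Prox1 rose and Hnf4a and Cebpa fell against normal kidney. Foxa1 rose 4.37-fold (2.13 ± 0.25 SE, adjusted p = 1.68e-05), Foxa2 3.55-fold (1.83 ± 0.22, adjusted p = 1.7e-05) and Foxa3 2.78-fold (1.48 ± 0.13, adjusted p = 1.53e-06). Prox1 rose 1.73-fold (0.79 ± 0.16, adjusted p = 0.00102). Hnf4a fell by 1.70 on the log2 scale (± 0.30 SE, 95% confidence interval -2.35 to -1.06, adjusted p = 0.000372), 3.26-fold lower. Cebpa fell by 0.68 (± 0.19, adjusted p = 0.00838). In bulk tissue, fewer cells that hold a transcript and less of it per cell cannot be told apart. Onecut1 missed the threshold at 0.46 (interval -0.03 to 0.96, adjusted p = 0.109), and passed with array weights (0.44, adjusted p = 0.0456). Nr1i3, near the floor in both groups, missed it at -0.16 (interval -1.33 to 1.01, adjusted p = 0.816).

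In all, 6 of the 8 passed, beside 49.8% of all genes. The 4 that rose stand beside 21.7% of all genes higher and the 2 that fell beside 28.1% lower. The median of the 8 differences was 0.63 and that of all genes -0.11. Without kidney tumors 2 and 3, which carried Xist, the calls for Cebpa (-0.54, adjusted p = 0.174) and Prox1 (0.51, adjusted p = 0.0977) were lost, with 1 kidney tumor left.

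The rest of the network divided in kidney tumors. Of 15 other endoderm and hepatoblast factors, 11 rose and none fell, with a median difference of 1.31. The pluripotency and germ layer genes Sall4 (4.11 ± 0.15) and Eomes (3.81 ± 0.28) rose most, followed by Gata4 (2.49 ± 0.29), a zinc-finger factor of endoderm and heart. Without kidney tumors 2 and 3, 10 rose. Of 18 measured hepatocyte network factors outside the 8 genes, 12 fell and 1 rose, with a median of -0.81, and 6 fell without kidney tumors 2 and 3. Klf15, a regulator of gluconeogenesis, Nr1h4, the bile acid receptor FXR, and Ppargc1a, a coactivator of Hnf4a, each fell by 1.89. These 3 stood at 10.20 to 11.30 in normal kidney, so the list is not specific to liver. The 12 proximal tubule genes had a median of -1.47, with 6 lower, 9 when arrays were centred on their medians and 3 without kidney tumors 2 and 3. The mean over those genes was 11.75, 11.36 and 10.52 in kidney tumors 1, 2 and 3, in the same order as their Hnf4a values of 11.74, 11.45 and 10.35. The median over those genes, at 11.84, 11.95 and 11.15, put tumor 2 above tumor 1, so the shared order held for the mean only. The part of tubule cell number in the Hnf4a difference was not tested.

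Other tissues that use Foxa1 and Foxa2, and other cell types, were read from their own markers. Of 8 floor plate and ventral midbrain genes 4 were higher in kidney tumors and none lower, Shh by 1.82 ± 0.22, Spon1 by 1.69 ± 0.30 and Nr4a2 by 0.57 ± 0.19. With arrays centred on their medians 3 were higher and 1 lower, and without kidney tumors 2 and 3 there were 2 higher. The list mean was 8.14 to 8.57 in kidney tumors and 7.76 to 8.05 in normal kidney. Of 11 visceral endoderm and fetal liver genes 4 were higher and 4 lower, with a median of -0.73. Cer1 (5.69 ± 0.51), Lefty1 (2.79 ± 0.47) and Spp2 (-2.21 ± 0.23) changed most. Of 10 gut epithelium genes 2 were higher and 2 lower. Of 10 neuronal genes 8 were higher, of 5 measured bile duct genes 3 and of 10 pluripotency genes 6. Of 8 macrophage genes 7 were higher and 1 lower, and 4 were higher without kidney tumors 2 and 3. The airway list mean was 6.01 to 6.12 in kidney tumors and 6.12 to 6.23 in normal kidney. The part of these cell types in the factors' values was not tested.

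Hepatocyte target genes moved in both directions in kidney tumors. Of 20, 7 were lower and 2 higher, with a median of -0.44. Without kidney tumors 2 and 3 there were 3 lower and 3 higher, with a median of -0.17. Apoa1, the main HDL apolipoprotein, was the exception among the genes of largest change: it rose by 2.71 ± 0.15 (adjusted p = 7.58e-08), from 7.61, 7.76 and 8.12 to 10.81, 10.39 and 10.41. Gys2, liver glycogen synthase, fell by 3.69, and all 3 tumors were below every normal kidney. Apoh, a plasma glycoprotein, fell by 2.42. It stood at 9.52, 9.25 and 9.50 in normal kidney and 8.84, 6.19 and 5.98 in kidney tumors 1, 2 and 3, so tumors 2 and 3 carried most of that fall. Albumin stood at 9.35 to 10.14 in normal kidney and 6.88 to 7.49 in kidney tumors. Among 9 paralogs of the factors, Hnf4g, the closest relative of Hnf4a, fell by 1.82 ± 0.18 and Nr1i2 (PXR), the closest relative of Nr1i3, by 0.84 ± 0.25, while Onecut2 rose by 0.80 ± 0.20. The paralogs Hnf4g, Onecut2, Cebpb, Cebpd and Nr1i2 also stand among the 18 network factors. Over all 9 paralogs, 3 were lower and 1 higher. Without kidney tumors 2 and 3 there were 1 lower and 2 higher, and without the arrays of high adipocyte markers 1 lower and 1 higher.

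In secondary kidney tumors the division was wider. Against normal kidney, Hnf4a fell by 5.43 on the log2 scale (± 0.30 SE, adjusted p = 8.96e-09), 43.2-fold lower. Foxa1 was 18.2-fold higher (4.19 ± 0.25, adjusted p = 1.88e-08) and Foxa2 4.72-fold (2.24 ± 0.22, adjusted p = 1.23e-06). Prox1 was 2.19-fold higher (1.13 ± 0.16, adjusted p = 3.47e-05), and Cebpa fell by 0.82 (± 0.19, adjusted p = 0.00181). Foxa3 rose by 0.48 (± 0.13, adjusted p = 0.00466), a call lost when arrays were centred on their medians (0.25, adjusted p = 0.0919) and without the 3 arrays of high adipocyte markers (0.43, adjusted p = 0.0551). Both comparisons with normal kidney share its 3 arrays, so their agreement is not independent.

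The count of 6 of 8 passing in secondary kidney tumors lay near the 68.6% of all genes that passed. The 4 higher stand beside 29.9% of all genes and the 2 lower beside 38.7%. Onecut1 was at 0.44 (interval -0.05 to 0.93, adjusted p = 0.101). Its arrays did not overlap, and a fit on the compared arrays alone gave the same 0.44 an adjusted p of 0.0404. Nr1i3 was at -0.40 (interval -1.57 to 0.76, adjusted p = 0.516). Its standard error of 0.54 comes from a spread shared with the liver tumors, where the SD was 1.62. A fit on the compared arrays alone gave the same difference an adjusted p of 0.00209, at levels near the 10th to 25th percentile of all genes.

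**Figure D2:**
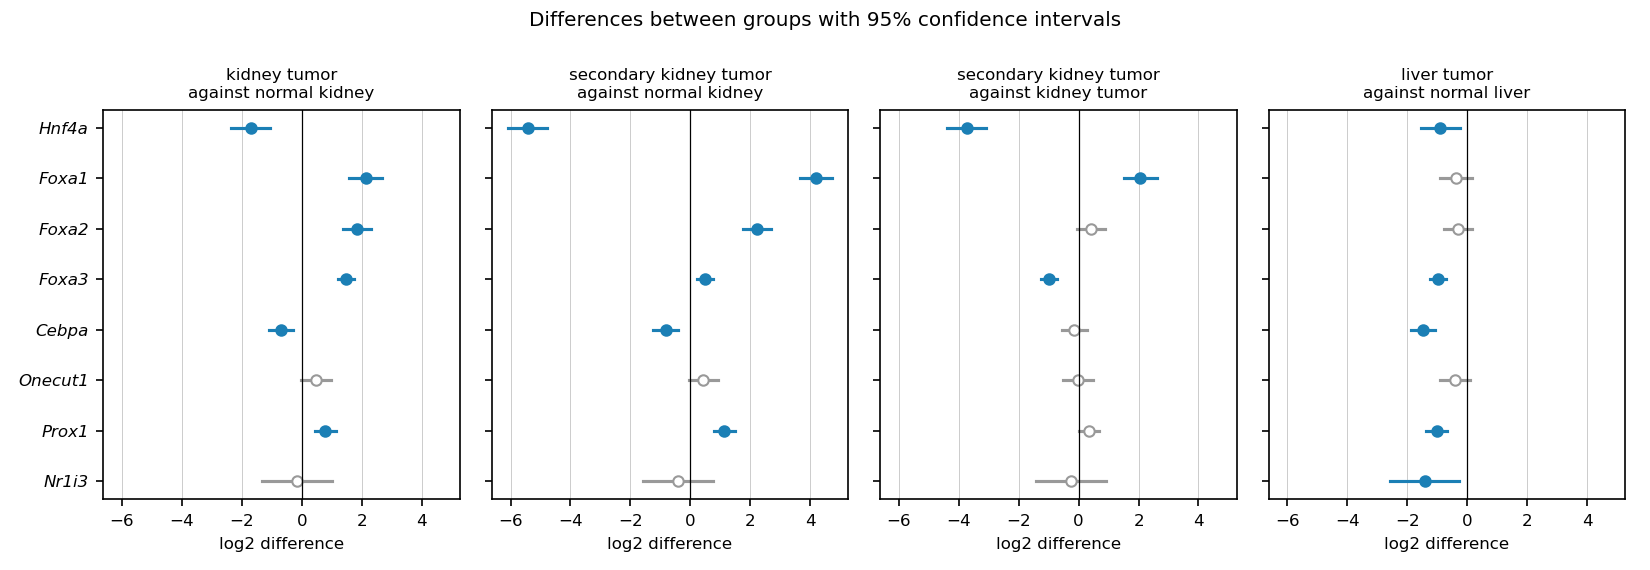
Log2 difference (first group minus second) of each factor with its 95% confidence interval in 4 comparisons; filled points passed an adjusted p of 0.05 and open points did not. Hnf4a lies below 0 in all 4 panels, and Foxa1 lies at 2.13 and 4.19 in the panels against normal kidney and at -0.38 in liver tumors.

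Secondary kidney tumors were also compared with kidney tumors. Hnf4a was 13.3-fold lower in the secondary tumors (-3.73 ± 0.30 SE, adjusted p = 6.69e-07). Foxa1 was 4.17-fold higher (2.06 ± 0.25, adjusted p = 3.1e-05), and Foxa3 was 1.99-fold lower (-0.99 ± 0.13, adjusted p = 4.46e-05). Thus Foxa1 and Foxa3, which both rose in kidney tumors, parted here. The 3 of 8 that passed stand beside 36% of all genes, 1 higher beside 18.5% and 2 lower beside 17.4%, so the count itself is near the background.

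Foxa2 missed the threshold, at 0.41 (interval -0.06 to 0.88, adjusted p = 0.16), and passed without kidney tumor 3 (0.62, adjusted p = 0.0423). Prox1 was at 0.34 (interval 0.00 to 0.69, adjusted p = 0.11), and at 0.63 (adjusted p = 0.0446) without kidney tumors 2 and 3. Onecut1 was at -0.02 (interval -0.52 to 0.47) and Nr1i3 at -0.24 (interval -1.41 to 0.92, adjusted p = 0.75). Cebpa was at -0.14 (interval -0.55 to 0.27, adjusted p = 0.582), and without secondary kidney tumor 1, the array of high adipocyte markers, it was lower in the secondary tumors (-0.43, adjusted p = 0.0123).

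Hepatocyte target genes as a list were low in secondary kidney tumors. Of 20 hepatocyte target genes 13 were lower than in normal kidney and 1 higher, led by G6pc (-7.71 ± 0.50), Pck1 (-5.77 ± 0.63) and Hpd (-4.49 ± 0.37), enzymes of glucose production and tyrosine breakdown that normal kidney also holds. The mean over the 20 genes was 6.51 to 6.61, beside 6.54 in ES cells. Apoa1 stood apart, at 9.71, 9.29 and 9.23 beside 7.61, 7.76 and 8.12 in normal kidney and 7.22 in ES cells. All 12 proximal tubule genes were lower, with a median of -6.72. Against kidney tumors 8 of 15 endoderm and hepatoblast factors were lower and 1 higher, among them Eomes (-2.15 ± 0.28), Gata4 (-1.99 ± 0.29) and Gata6 (-1.73 ± 0.25). Against normal kidney 4 of the 15 were higher and 2 lower, and Sox9, a factor of progenitor epithelia, cartilage and neural tissue, changed most, at 3.26 ± 0.25 higher.

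Foxa1 and Foxa2 also mark the floor plate and the ventral midbrain, and airway epithelium. Lists for these tissues were higher in secondary kidney tumors. Against kidney tumors both lists rose. Foxa2, at 0.41, did not pass there, but passed without kidney tumor 3 (0.62, adjusted p = 0.0423). In kidney tumors against normal kidney both genes rose. There 4 of 8 floor plate and ventral midbrain genes were higher, with a list median of 0.24. Of 12 airway genes 1 was higher there, with a list median of -0.14. All 8 measured floor plate and ventral midbrain genes were higher in secondary kidney tumors than in normal kidney (median 2.75) and than in kidney tumors (median 2.12). Nr4a2, a factor of dopamine neurons, was 4.18 ± 0.19 higher than in normal kidney, Spon1, a floor plate matrix protein, 3.02 ± 0.30 and Shh, the floor plate signal, 2.87 ± 0.22. Shh stood at 7.43, 7.25 and 7.48 in normal kidney, 8.61, 9.46 and 9.56 in kidney tumors and 10.45, 10.16 and 10.16 in secondary tumors. Of 8 macrophage genes 5 were higher than in normal kidney. All 10 neuronal genes were higher, with a list mean of 10.90 to 11.34 against 6.44 to 6.70. Of 12 airway and mucous genes 10 were higher, led by Reg3g (5.13 ± 0.16), Bpifa1 (4.58 ± 0.29) and Agr2 (3.78 ± 0.18). The club cell markers Scgb1a1 and Scgb3a2 were at 4.77 to 5.12 and 5.24 to 5.69 in all 16 arrays, below the 25th percentile of all genes. The airway list mean was 8.05 to 8.77 in secondary tumors and 6.01 to 6.32 in every other array. Of 7 lymphatic endothelium genes, a tissue that Prox1 marks, 4 were higher than in normal kidney and 2 lower. The part of any of these cell types in the Foxa1, Foxa2 or Prox1 values was not tested.

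In liver tumors no factor rose against normal liver and 5 of 8 fell. Cebpa fell by 1.49 (± 0.19 SE, adjusted p = 4.05e-05), 2.80-fold lower. Prox1 fell by 1.02 (± 0.16, adjusted p = 0.000204) and Foxa3 by 0.98 (± 0.13, adjusted p = 4.84e-05). Hnf4a fell by 0.89 (± 0.30, adjusted p = 0.0242) and Nr1i3 by 1.42 (± 0.54, adjusted p = 0.0413). Foxa1 was at -0.38 (interval -0.92 to 0.17, adjusted p = 0.218), Foxa2 at -0.30 (interval -0.76 to 0.17, adjusted p = 0.259) and Onecut1 at -0.41 (interval -0.90 to 0.09, adjusted p = 0.149). The 5 that passed stand beside 52.3% of all genes in either direction, 30.7% lower and 21.5% higher. The median of the 8 differences was -0.94 and that of all genes -0.13.

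The calls for Cebpa, Foxa3 and Prox1 held in every alternative run and the other 2 did not. Without liver tumors 2 and 3, which carried Xist, Hnf4a was at -0.37 (adjusted p = 0.496) and Nr1i3 at 0.40 (adjusted p = 0.105), the opposite sign. The Nr1i3 difference rested on those 2 tumors. Hnf4a also lost its call after quantile normalization (-0.56, adjusted p = 0.147), without liver tumor 2 (-0.88, adjusted p = 0.0596), without liver tumor 3 (-0.64, adjusted p = 0.101) without normal liver 2 (-0.84, adjusted p = 0.068) and without the 3 arrays of high adipocyte markers (-0.91, adjusted p = 0.0753). Nr1i3 lost its call in 9 further alternatives, at adjusted p values of 0.0521 to 0.18. When arrays were centred on their medians all 8 passed, at -0.58 for Foxa1, -0.50 for Foxa2 and -0.60 for Onecut1. That centring moved the median of all genes from -0.13 to -0.33.

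Markers of other cell types moved beside these falls. Of 8 macrophage genes 5 were higher in liver tumors and none lower, and the list mean was 9.20 to 9.94 against 8.51 to 8.61 in normal liver. Of 5 bile duct genes 3 were higher, with list means of 8.48 to 9.57 against 7.78 to 7.91. With liver tumor 1 as the only tumor, 2 macrophage genes and 1 bile duct gene were higher. Of 10 pluripotency genes 5 were higher and 1 lower, with list means of 7.80 to 8.61 against 6.65 to 6.73. Of 11 visceral endoderm and fetal liver genes 5 were higher and 2 lower, with a median of 1.04. Cer1 (4.28 ± 0.51), Lefty1 (2.20 ± 0.47) and Afp (1.59 ± 0.40) changed most in that list. Lymphatic endothelium, which Prox1 also marks, had 2 of 7 genes higher and none lower while Prox1 fell. The part of these cell types in the factors' values was not tested.

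Around the 8 factors, 15 of 18 hepatocyte network factors fell in liver tumors and none rose, with a median of -0.86. Nr0b2, the corepressor SHP, fell by 2.54 ± 0.24, Creb3l3, a factor of fasting lipid metabolism, by 1.49 ± 0.11 and Nr1h3, the oxysterol receptor LXR alpha, by 1.45 ± 0.21. With liver tumor 1 as the only tumor, 6 fell. Of 9 paralogs 6 fell and none rose, Nr1i2 by 1.13 ± 0.25, Onecut2 by 0.69 ± 0.20 and Cebpe by 0.68 ± 0.14, and 2 fell with liver tumor 1 alone. The paralogs Hnf4g, Onecut2, Cebpb, Cebpd and Nr1i2 are also counted among the 18 network factors, so the 2 counts are not independent. Of 15 endoderm and hepatoblast factors 5 rose and 3 fell, with Sall4 (3.19 ± 0.15), Eomes (3.12 ± 0.28) and Mixl1 (1.59 ± 0.23) changing most. Hepatocyte target genes kept a list mean of 12.58, 11.90 and 11.74 in liver tumors 1, 2 and 3, against 12.76 to 12.79 in normal liver. Of these 20 genes 10 fell and 1 rose, 5 fell with liver tumor 1 as the only tumor, and G6pc (-2.19 ± 0.50), Hpd (-1.64 ± 0.37) and Tat (-1.36 ± 0.43) changed most. Albumin was at 13.54 to 13.75 beside 13.76 to 13.89.

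**Figure D3:**
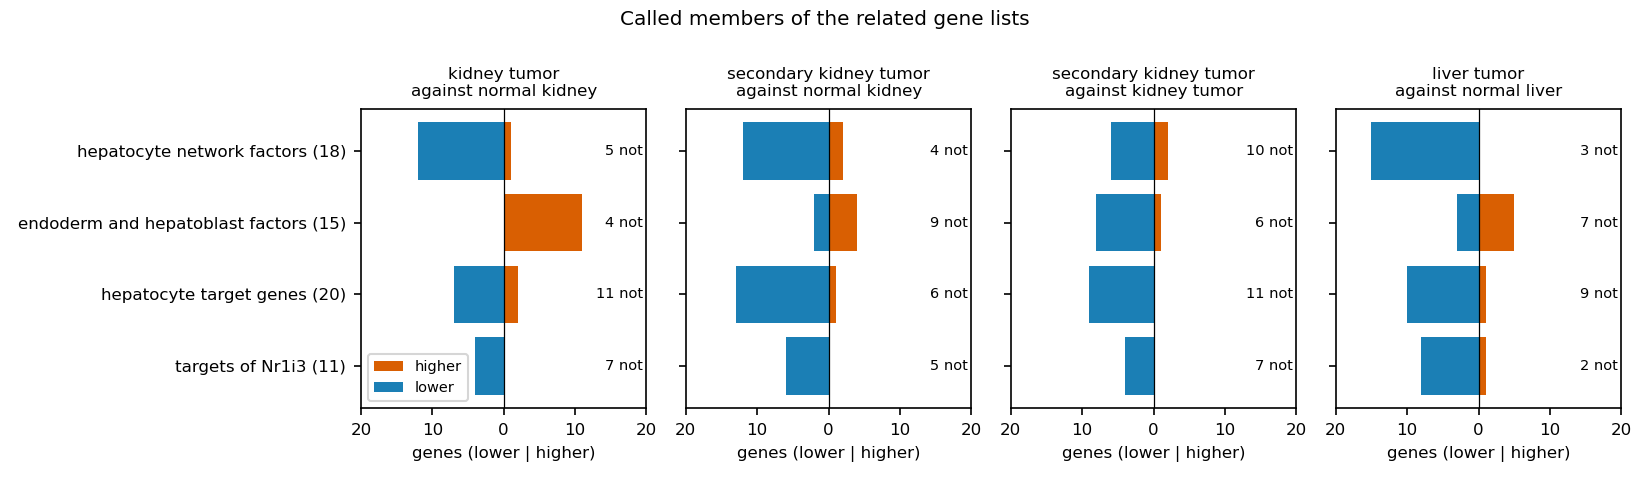
Number of genes that passed an adjusted p of 0.05, lower to the left and higher to the right, in 4 gene lists and 4 comparisons; the number measured is in parentheses and those not passing stand at the right. Endoderm and hepatoblast factors are 11 higher and 0 lower in kidney tumors, and hepatocyte network factors 0 higher and 15 lower in liver tumors.

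Genes that Nr1i3 is known to control were divided over the 3 liver tumors. Of 11 measured targets 8 fell in liver tumors and 1 rose, with a median of -1.39, and 7 fell with liver tumor 1 as the only tumor. Cyp2c55, a drug-metabolising cytochrome P450, fell by 5.01 ± 0.14 (adjusted p = 6.14e-10). It stood at 10.34, 10.71 and 10.60 in normal liver and 5.24, 5.78 and 5.58 in liver tumors. Cyp2c37 fell by 2.90 ± 0.15, from 12.37, 12.37 and 12.57 to 9.17, 9.81 and 9.62. Cyp2b13 fell by 1.5 ± 0.44 (adjusted p = 0.013). Liver tumor 1, whose Nr1i3 of 10.58 was above every normal liver, held the highest value of the 3 tumors for 6 targets and the lowest for 5. The 6 highest were Cyp2b10, Cyp2c29, Cyp3a11, Gstm3, Abcc2 and Alas1, and the 5 lowest were Cyp2b9, Cyp2b13, Cyp2c37, Cyp2c55 and Abcc4. These genes are named after their values were seen. Some ranks rest on small gaps between single arrays. Abcc4 was at 8.28, 8.32 and 8.31 and Gstm3 at 12.04, 11.99 and 11.92 in liver tumors 1, 2 and 3. Cyp2b10, the best known Nr1i3 target, was at 8.74, 6.68 and 7.18 in liver tumors 1, 2 and 3 and at 9.06, 9.35 and 8.55 in normal liver. Of the liver tumors, liver tumor 1 alone lay within the normal liver range. Cyp2b10 was also at 9.94 in kidney tumor 1, above every normal liver, although Nr1i3 was at 6.23 in that array. It was at 7.37, 7.19 and 6.83 in normal kidney and at 5.85 and 6.23 in kidney tumors 2 and 3. Alas1, the first enzyme of heme synthesis, was at 11.26, 10.01 and 10.60 beside 11.34, 11.11 and 11.57. The list mean over the 11 targets was 9.59, 9.52 and 9.54 in liver tumors 1, 2 and 3 and 10.99 to 11.21 in normal liver. Cyp2c and Cyp2b genes are families of near-identical sequence, so a probe set may read its relatives.

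**Figure D4:**
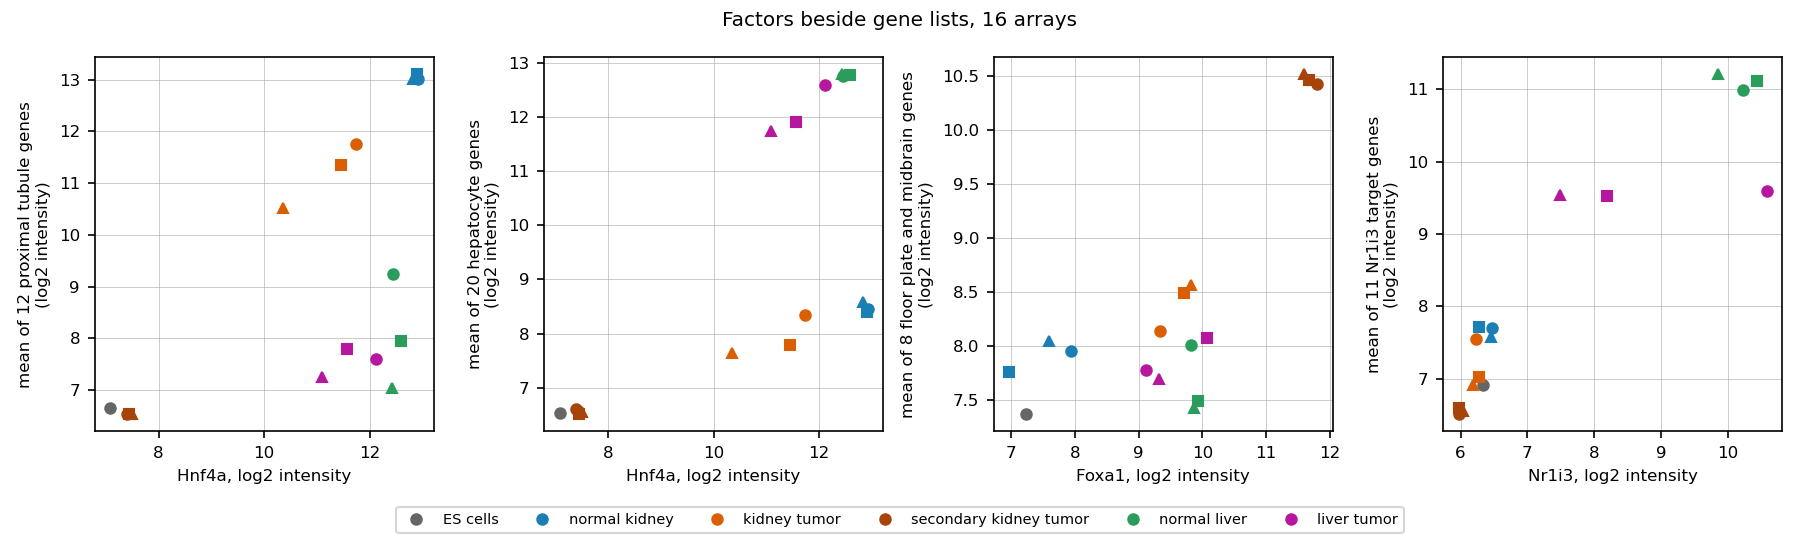
Each of the 16 arrays by a factor's log2 intensity (horizontal) and the mean log2 intensity of a gene list (vertical); colours are groups and symbols are arrays 1, 2 and 3 within a group. In the right panel liver tumor 1 (circle) lies at 10.58 for Nr1i3 and 9.59 for its targets, with the other liver tumors at the same height and lower Nr1i3.

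The tumors of the 2 organs were compared directly. Liver tumors exceeded kidney tumors in 5 factors, beside 5.9% of all genes (13% in either direction and 7.06% lower). Foxa3 was 5.12-fold higher (2.36 ± 0.13 SE), Nr1i3 5.72-fold (2.52 ± 0.54, adjusted p = 0.007), Onecut1 3.41-fold (1.77 ± 0.23), Prox1 3.02-fold (1.59 ± 0.16) and Cebpa 2.96-fold (1.57 ± 0.19). These are the same 5 genes that were highest in normal liver. Hnf4a at 0.42 (interval -0.23 to 1.06) and Foxa1 at -0.13 (interval -0.67 to 0.42) did not pass. Foxa2 was at -0.61 (interval -1.08 to -0.14, adjusted p = 0.0884). Without liver tumor 2 it was at -0.87 (adjusted p = 0.00763). The Nr1i3 call was lost without kidney tumors 2 and 3 (2.52, adjusted p = 0.0914) and in a fit on the tumor arrays alone (2.52, adjusted p = 0.153).

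Whether the tumor difference itself differed between organs was tested as the liver difference minus the kidney difference. Foxa1 gave -2.51 ± 0.36 SE (adjusted p = 0.000512), Foxa3 -2.46 ± 0.18 (adjusted p = 6.95e-06), Foxa2 -2.12 ± 0.31 (adjusted p = 0.000553) and Prox1 -1.81 ± 0.22 (adjusted p = 0.000208). All 4 rose in kidney tumors, and in liver tumors Foxa3 and Prox1 fell while Foxa1 and Foxa2 did not pass. The 4 stand beside 7.54% of all genes lower, 9.26% higher and 16.8% in either direction. Cebpa gave -0.80 (interval -1.38 to -0.23, adjusted p = 0.0557) and Onecut1 -0.87 (interval -1.56 to -0.17, adjusted p = 0.087), and neither result was firm. Cebpa passed in 7 alternatives, at adjusted p values of 0.00483 to 0.0471, among them a fit on the compared arrays alone (0.00588) and median centring (0.037). Onecut1 passed in 2, with array weights (0.0284) and without liver tumor 1 (0.0332). The count of 4 rose to at most 6 in the alternatives run. Hnf4a gave 0.81 ± 0.42 (interval -0.10 to 1.72, adjusted p = 0.224), so its falls in the 2 organs were not shown to differ in size. Nr1i3 gave -1.26 ± 0.76 (adjusted p = 0.3), and without liver tumor 1 it gave -2.18 (adjusted p = 0.000169).

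For each factor the genes of most similar pattern were found as those of smallest root mean square difference over the 16 arrays, after centring, among 9476 genes whose group means spanned at least 1 log2 unit. Nearest to Hnf4a were Cideb (0.29), a lipid droplet protein of liver and gut, Habp2 (0.33), a plasma protease, and Mia2 (0.34). Nearest to Foxa3 were Sec14l2 (0.245), Gckr (0.33), the glucokinase regulator, and F7 (0.39), coagulation factor VII. Nearest to Cebpa were Pon3 (0.25), a paraoxonase, Atp8b1 (0.30) and Akr1c13 (0.32). Nr1i3 lay nearest to Abcg8 (0.395), a sterol transporter of hepatocytes, Baat (0.455), the bile acid conjugating enzyme, and Sdr9c7 (0.47). Onecut1 lay nearest to the sialyltransferases St3gal1 (0.33) and St3gal4 (0.34) and to Atf5 (0.34), and Prox1 to Onecut2 (0.37), Pygl (0.46), liver glycogen phosphorylase, and Rnf144b (0.51). Nearest to Foxa2 were Lgr5 (0.33), a Wnt-associated stem cell receptor, Dtx4 (0.37) and Plxnb1 (0.40). Foxa1, whose own root mean square about its mean was 1.44, lay nearest to Foxp2 (0.51), Nrep (0.54) and Zfhx4 (0.56), genes known from neurons and neural progenitors. The arrays share their groups, and these distances carry no test.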

How the data were processed

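Total RNA was labelled with the WT Terminal Labeling kit, per the labels' protocols, and each sample was read on a 1-channel array. The authors deposited linear intensities per probe set (20.7 to 20262), with no detection p-values. The sources used here do not give the summarisation, background correction or normalization, and the submitters' processing notes name the build mm9. The 28856 probe sets were named through GEO's platform annotation: 21789 had 1 gene symbol, 1621 several and 5446 none. The probe set of highest mean log2 intensity stood for each of 19938 genes. Values were log2-transformed from the deposited intensities without a pseudocount or further scaling.

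Groups came from sample titles. limma 3.58.1 in R 4.3.3 fitted all 16 arrays with 1 coefficient per group, with empirical Bayes moderation, and p-values were Benjamini-Hochberg adjusted over 19938 genes for each comparison. A gene passed at an adjusted p under 0.05, 2-sided. Fold changes, standard errors and 95% intervals come from that fit. The fit was tested on simulated data. The number of arrays limits the precision. Named genes were all 8 factors, the 3 of closest pattern to each, and, from each list, the 3 that passed with the largest change per comparison. The factors and gene lists were chosen with earlier results of these data known. Of 20 hepatocyte network factors 18 were measured, of 15 Nr1i3 targets 11 and of 10 floor plate genes 8. Some genes, such as Sox9, Sox17, Cubn and Krt20, stand in more than 1 list, so the lists are not independent. Upstream sequences are from RefSeq on GRCm38.p6, where all 8 factors matched. DNA methylation and sorted early cells were not analysed here.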

Additional observations from a re-analysis of the deposited data

Results flagged for a closer look

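The difference between tumor and normal tissue was not the same in the 2 organs for 4 of the 8 factors. The test was of the liver difference minus the kidney difference. Foxa1 differed by -2.51 on the log2 scale, since it was 2.13 higher in kidney tumors than in normal kidney and -0.38 from normal liver in liver tumors. Foxa2 differed by -2.12, from 1.83 in kidney and -0.30 in liver. Foxa3 differed by -2.46, from 1.48 in kidney and -0.98 in liver, and Prox1 by -1.81, from 0.79 and -1.02. For Foxa3 and Prox1 every kidney tumor was above every normal kidney and every liver tumor below every normal liver. All 4 were lower in normal kidney than in normal liver, as were 7 of the 8 factors in all. Normal liver minus normal kidney was 2.38 for Foxa1, 1.51 for Foxa2, 4.81 for Foxa3 and 3.40 for Prox1. Liver tumor minus kidney tumor was -0.13, -0.61, 2.36 and 1.59 for the same genes. Groups of 3 arrays were too small for a test of single outlying arrays.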

How the results depend on the processing

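Of 1056 recomputed values of single factors, 995 kept their direction and their side of the threshold. The count of factors that passed in liver tumors against normal liver moved from 5 to 3 after quantile normalization, without liver tumors 2 and 3, and without the arrays of high adipocyte markers, and to 8 with arrays centred on their medians, and ranged from 3 to 6 when each replicate was left out. Without liver tumors 2 and 3, chosen as an alternative after seeing the data like the adipocyte setting, Nr1i3 turned to 0.40 against normal liver and to 0.56 in the organ difference. Without kidney tumors 2 and 3, Onecut1 turned to 0.23 in secondary against primary kidney tumors, and in liver against kidney tumors Hnf4a turned to -0.15 and Foxa1 to 0.16. None of these 5 had passed after the turn. Without the adipocyte arrays Onecut1 in secondary against primary kidney tumors was 0.01. When each replicate was left out it ranged from -0.15 to 0.10, Cebpa in that comparison from -0.43 to 0.01, and in liver against kidney tumors Foxa1 from -0.41 to 0.06 and Hnf4a from 0.00 to 0.70. Settings that leave 1 tumor assume that it varies like the other groups. Over all genes, the calls moved from 9922 to 5715 in kidney tumors without tumors 2 and 3, from 10419 to 5862 in liver tumors without tumors 2 and 3, and in liver against kidney tumors from 2584 to 948 in a fit on those arrays and 4278 with array weights. In the organ difference they moved from 3350 to 5068 with array weights, 1692 without kidney tumors 2 and 3 and 2144 without the adipocyte arrays. Centring arrays on their medians moved the share of calls that were higher from 43.6% to 30.8% in kidney tumors, from 43.6% to 29.8% in secondary against normal kidney, from 51.5% to 38.9% in secondary against primary kidney tumors and from 41.2% to 23.2% in liver tumors. The causes were not tested. Replicate numbers were not used as pairs in the main fit. Deviations of same-numbered arrays correlated at -0.28 to 0.27, over 0.1 in 6 of 30 pairs, and those of different number at -0.27 to 0.22. Kidney and liver tumors of the same number gave 0.27 for number 1, 0.25 for number 2 and 0 for number 3. The labels do not say whether these tumors shared animals, and a pairing of kidney with liver tumors alone was not tested. A replicate block changed the call of 1 factor, Cebpa in the organ difference (-0.80, adjusted p = 0.0471 with the block), and left the counts of factors that passed at 6, 6, 3, 5, 7 and 5 in the other comparisons. Signal near the floor limits Nr1i3 outside liver.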
